A study of Mus musculus with 16 samples.

Results

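The genes described here encode the laminins, the nidogens and perlecan of the basement membrane, as measured by RNA sequencing of the left atrium (LA) of old female mice. The 10 members were taken by gene symbol from the deposited table of 24972 genes: the laminin alpha chain genes Lama2, Lama4 and Lama5, the beta chain genes Lamb1, Lamb2 and Lamb3, the gamma chain gene Lamc1, the nidogen genes Nid1 and Nid2, and Hspg2, which encodes perlecan. All 10 were found, and all 10 passed the filter on low values (a mean of at least 10) that left 14261 genes for testing. The mice were C57Bl6/J females aged 24 months, in 4 groups with 4 LA libraries each. AngII mice had intact ovaries and received angiotensin II, the pressor peptide of the renin-angiotensin system, from an implanted osmotic pump for the last 4 weeks. Ovx + AngII mice were ovariectomized at 12 months of age and then received the same infusion at the end. Ovx mice were ovariectomized at 12 months and were not infused, and control mice had neither ovariectomy nor infusion. The study states that its sham surgery involved no vehicle-filled pump, so effects of pump and peptide cannot be told apart here. It cites earlier work in which the missing pump made no difference to the heart. RNA came from the entire atrium, and whether each LA library came from 1 mouse or from a pool is not clear from the study's description. The p-values set differences between groups against the spread of libraries within groups, which may not be the spread between mice.

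A laminin is a cross-shaped trimer of 1 alpha, 1 beta and 1 gamma chain that self-assembles into a sheet on the cell surface. It is held there by integrins and by dystroglycan, which links it to dystrophin and the cytoskeleton. Nidogens bind the gamma chain and tie the laminin sheet to the collagen IV network, and perlecan is a large heparan sulphate proteoglycan that joins both and stores growth factors. In the heart such a layer wraps each cardiomyocyte, each smooth muscle cell and the outer face of each capillary.

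Column totals of the normalised counts were 17598222 to 21513796. The deposited table carries 2 scales: median-of-ratios factors were 1.06 to 1.07 in the AngII and control libraries and 0.945 to 0.950 in the Ovx + AngII and Ovx libraries, a shift of -0.17 on the log2 scale. AngII comparisons lie within one scale and use the deposited values, whereas Ovx comparisons use values rescaled by these factors. The table's own top heading row places Ctrl replicate 4 under AngII, against its sample title, which was followed here. This library had a mean correlation of 0.945 with the other controls, against 0.963 to 0.980 for the other 15 libraries with their own groups. Results that involve the control group are also given without it where it bears on them. Haemoglobin genes held 1.46% of the total in AngII replicate 4 and 0.970% in Ctrl replicate 4, against 0.0613% to 0.349% elsewhere. Cardiomyocyte markers were high throughout, each averaging at least 33894 normalised counts, as deposited, in every group, while Epcam, Krt5 and Sftpc stayed below 10 everywhere.

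Levels were compared between genes per kb of the longest coding transcript. The order can depend on this choice of length. For Lama4 the union of all exons is 12.068 kb, against 6.046 kb for this transcript, and for Lamb2 6.082 kb, against 5.629 kb. An order by exon union was not computed. Lamb2 had the highest level, a mean of 1877 rescaled counts per kb over 16 libraries (1555 to 2020.0). Hspg2 followed at 1244 and Lamc1, the gamma chain of most laminins, at 1070.1 rescaled counts per kb. Nid1 averaged 854, Lama4 685, Lamb1 564, Lama2 403 and Nid2 350.0 rescaled counts per kb. Lamb3 (209) and Lama5 (178) came last. The ranges over the 16 libraries overlapped between every pair of neighbours in this order. Within a library, however, Lamb2 exceeded Hspg2, Lamc1 exceeded Nid1, Nid1 exceeded Lama4, Lama4 exceeded Lamb1, and Lamb1 exceeded Lama2 in 16 of 16 libraries. Hspg2 exceeded Lamc1 in 15, Nid2 exceeded Lamb3 in 14, Lama2 exceeded Nid2 in 13 and Lamb3 exceeded Lama5 in 10 of 16. The alpha chain transcripts were thus led by Lama4, the chain of endothelial and muscle basement membranes, with Lama2, the main chain of striated muscle, second. Lamb3 varied most among the 10 genes, with a ratio of highest to lowest library of 3.26, against 1.30 for Lamb2 and 1.73 for Nid2 and Hspg2.

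**Figure D1:**
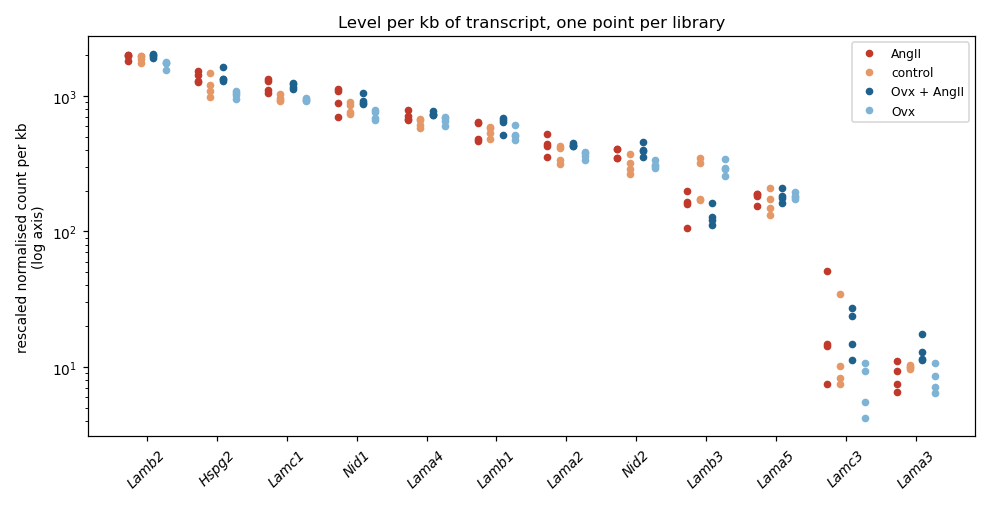
Rescaled normalised counts per kb of transcript (y, log axis) for the 10 genes and 2 other laminin chains (x), with 1 point per library and AngII, control, Ovx + AngII and Ovx side by side. Lamb2 lies highest at a mean of 1877, Lamb3 spreads from 107 to 347, and Lamc3 and Lama3 lie below every one of the 10.

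In GRCm38 coordinates (GENCODE M21), Lama2 lies on chromosome 10, 26980036 to 27619758, minus strand, Lama4 on chromosome 10, 38965515 to 39110188, plus strand, and Lama5 on chromosome 2, 180176373 to 180225859, minus strand. Lamb1 lies on chromosome 12, 31265234 to 31329644, plus strand, Lamb2 on chromosome 9, 108479736 to 108490530, plus strand, and Lamb3 on chromosome 1, 193207699 to 193343878, plus strand. Lamc1 lies on chromosome 1, 153218922 to 153332786, minus strand, Nid1 on chromosome 13, 13437551 to 13512269, plus strand, Nid2 on chromosome 14, 19751265 to 19811787, plus strand, and Hspg2 on chromosome 4, 137468769 to 137570630, plus strand. The Lamb3 locus overlaps Hsd11b1 and G0s2 on the opposite strand, and the end of Nid2 overlaps Rtraf. The library kit was stranded, and whether counting used the strand is not given in the sources used here.

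The RefSeq promoter table (GRCm38.p6) held 7 of the 10 genes. The 250 bases before the transcription start are shown for Hspg2, which rose with AngII in Ovx mice, for Lamb3, which fell, and for Lama5, which passed in neither direction. Capitals mark GGGCGG or its reverse complement CCGCCC, the core of the GC box to which Sp1-type factors bind. The Hspg2 stretch is chr4:137468553-137468802 on the plus strand, the Lamb3 stretch (the first of 2 listed starts) is chr1:193301744-193301993 on the plus strand, and the Lama5 stretch is chr2:180225860-180226109 on the minus strand. Both Lamb3 starts lie inside the gene span given above, which begins at 193207699. Where in that span Hsd11b1 and G0s2 lie is not given here.
Hspg2: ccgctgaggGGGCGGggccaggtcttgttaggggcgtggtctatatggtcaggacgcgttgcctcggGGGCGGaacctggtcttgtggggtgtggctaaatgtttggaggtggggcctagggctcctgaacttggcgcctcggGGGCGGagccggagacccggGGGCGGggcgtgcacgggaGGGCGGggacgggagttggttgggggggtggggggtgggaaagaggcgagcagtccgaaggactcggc
Lamb3: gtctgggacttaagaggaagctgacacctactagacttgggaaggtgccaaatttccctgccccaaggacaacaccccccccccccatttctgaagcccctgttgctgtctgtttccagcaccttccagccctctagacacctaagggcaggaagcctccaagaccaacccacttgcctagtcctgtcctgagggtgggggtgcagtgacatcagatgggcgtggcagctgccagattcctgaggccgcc
Lama5: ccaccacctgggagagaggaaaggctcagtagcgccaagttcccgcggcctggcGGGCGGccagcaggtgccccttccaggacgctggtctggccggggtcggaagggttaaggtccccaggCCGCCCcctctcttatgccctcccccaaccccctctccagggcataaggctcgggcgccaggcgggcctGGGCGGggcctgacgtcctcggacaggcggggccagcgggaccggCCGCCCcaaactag
The window held 5 copies in Hspg2, 4 in Lama5, 2 in Lamb1 and 1 in Nid1, and 0 in Lama2, Lamb2 and both Lamb3 starts. Of 32851 promoter windows of this length in the table, 32.7% held at least 1 copy and 4.09% held 4 or more.

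The first question was which of these genes responded to AngII, in mice with and without ovaries. In ovariectomized mice 3 of the 10 rose and 1 fell (limma adjusted p of at most 0.05, here the test): Hspg2, Lamc1 and Nid2 were higher and Lamb3 lower in Ovx + AngII than in Ovx. Of all tested genes 10.1% passed this test, 5.83% higher and 4.31% lower. The median log2 fold change of the 10 was 0.25, against -0.0095 over all tested genes, and 8 of 10 lay above 0. The 4 Ovx + AngII libraries lay wholly above the 4 Ovx libraries for 7 of the 10 genes and wholly below for Lamb3, against 11.6% and 10.2% of all tested genes. In mice with ovaries 1 of the 10 passed the test, Lamc1, which was higher in AngII than in control mice, where 2.94% of all tested genes passed, 1.68% higher and 1.26% lower. There 9 of 10 lay above 0, with a median of 0.19 against -0.0074 over all tested genes, and the AngII libraries lay wholly above the controls for 1 of 10 and wholly below for 0, against 3.86% and 3.17% of all tested genes. With a minimum log2 change of 1 either way added to this limma test, the size the study asked for in its own DESeq2 calls, Lamb3 alone of the 10 passed in Ovx mice (background 2.31%) and 0 in mice with ovaries (background 0.582%). For the mean of both AngII responses, which is not independent of them, 6 of the 10 passed the test higher and 1 lower, against 9.2% and 8.45% of all tested genes (17.6% in either direction). Without Ctrl replicate 4 the counts past the test were 3 of 10 in mice with ovaries, 4 in ovariectomized mice and 6 for the mean, while the shares of all tested genes were 10.3%, 14.1% and 25.9%, each above its share with that library. In whole-tissue RNA a change in the number of cells of a type and in the RNA per cell cannot be told apart.

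**Figure D2:**
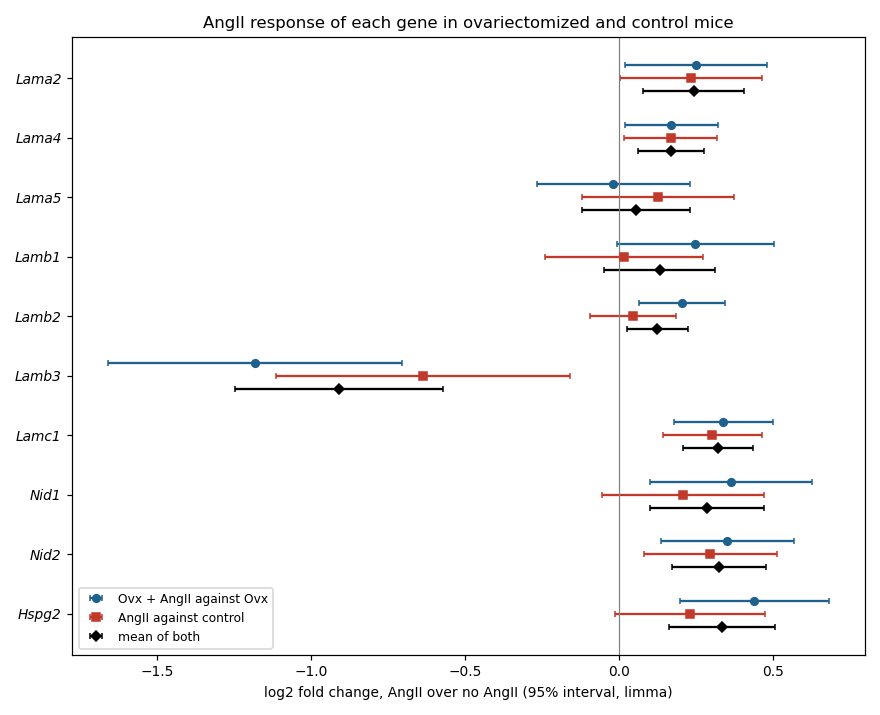
Log2 fold change of each gene (x, with its 95% interval from limma) for Ovx + AngII against Ovx (blue circles), AngII against control (red squares) and their mean (black diamonds). Lamb3 lies furthest from 0, at -1.18, -0.64 and -0.91, while Lamc1, Nid2 and Hspg2 lie between 0.23 and 0.44 in all 3 estimates.

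Markers of cell types were summed beside these genes. Beside the counts that passed, 5.83% of all tested genes passed higher and 4.31% lower in Ovx + AngII against Ovx mice. In AngII against control mice these shares were 1.68% and 1.26%. Summed rescaled counts of 7 smooth muscle and pericyte markers were 15371 to 17151 in Ovx + AngII mice, against 9512 to 11034 in Ovx mice, and 14752 to 16005 in AngII mice, against 10117 to 11936 in control mice. All 7 lay above 0 in both comparisons, and 4 and 3 of them passed the test. Of 7 endothelial markers all lay above 0 in both, with 2 passing in each, and sums of 29450.0 to 35971 in Ovx + AngII mice, against 26717 to 27608 in Ovx mice, and 33137 to 35472 in AngII mice, against 25917 to 33868 in control mice. Of 6 fibroblast markers 4 lay above 0 in Ovx + AngII against Ovx mice and 5 in AngII against control mice, and 3 passed higher in each. Fibroblast sums were 44377 to 54912 in Ovx + AngII mice, against 40124 to 46897 in Ovx mice. They were 43779.8 to 53432 in AngII mice, against 40281 to 44439 in control mice. None of these lists had a marker at 0. Beside the lower Lamb3, all 5 adipocyte markers lay below 0 in Ovx + AngII against Ovx mice and 1 passed, with sums of 599 to 1194 in Ovx + AngII mice, against 1039.6 to 3026 in Ovx mice. With intact ovaries, however, 4 of those 5 lay above 0, with sums of 715 to 879 in AngII mice, against 780.0 to 1375 in control mice. Of 4 Schwann cell markers 3 lay below 0 in Ovx + AngII against Ovx mice and 0 passed, with sums of 149.9 to 258 in Ovx + AngII mice, against 226 to 327 in Ovx mice, and 0 passed in mice with ovaries, with sums of 229 to 305 in AngII mice, against 138 to 258 in control mice. Of 6 cardiomyocyte markers Actn2 and Nppa rose in Ovx + AngII against Ovx mice and 3 lay below 0, with a median of -0.038. In that comparison 2 of the 6 lay wholly above and 2 wholly below, against 11.6% and 10.2% of all tested genes. In mice with ovaries 2 of the 6 cardiomyocyte markers lay above 0 and 0 passed. Their sums were 1627000 to 1761430 in Ovx + AngII mice, against 1360710 to 1531490 in Ovx mice, without overlap, and 1481260 to 1783240 in AngII mice, against 1226390 to 1555340 in control mice. Of 5 epicardial and mesothelial markers 0 passed in Ovx mice and 1 rose in mice with ovaries, and of 6 leukocyte markers 0 passed in either. Of 5 epithelial markers 3 were tested and all lay above 0 in both comparisons, with sums of 228 to 369 in Ovx + AngII mice, against 180.4 to 262 in Ovx mice, and 338 to 417 in AngII mice, against 156 to 348 in control mice. Of these 3, 0 passed in either comparison. For the mean of both AngII responses 2 passed higher, where 9.2% of all tested genes did. The part of cell makeup in the results for the 10 genes was not tested.

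Lamc1 encodes the gamma chain that pairs with all 3 alpha chains measured here and with both Lamb1 and Lamb2. It had 8106, 8417, 8961 and 8759 normalised counts in Ovx + AngII mice, against 6678, 7018, 6695 and 6672 in Ovx mice. It had 8482, 8993, 10389 and 10860.2 normalised counts in AngII mice, against 7474, 7816, 8421 and 7556 in control mice. In both comparisons the lowest library with AngII exceeded the highest without it. Lamc1 rose by 0.34 ± 0.08 (SE, limma adjusted p = 0.0108) on the log2 scale in Ovx mice, a call kept in all 27 alternative settings. In mice with ovaries it rose by 0.30 ± 0.08 (adjusted p = 0.0443), a call that 17 of 27 settings lost, with adjusted p up to 0.255. Of the single libraries, only the omission of AngII replicate 1, AngII replicate 2 or Ctrl replicate 4 left this call in place. The change was 0.29 ± 0.08 (adjusted p = 0.0372) without Ctrl replicate 4. The mean of both responses was 0.32 ± 0.05 (adjusted p = 0.000839) and passed in all 26 settings in which it was computed.

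Hspg2, the perlecan gene, had 17368, 17829, 21938 and 17791 normalised counts in Ovx + AngII mice, against 14218, 12750.3, 13519.8 and 14579 in Ovx mice. The groups did not overlap, and Ovx + AngII replicate 3 stood above the other 3. In AngII mice Hspg2 had 19113, 19392, 21572 and 23019 normalised counts, against 14688, 16422, 18332 and 21971 in control mice. Those groups overlapped through Ctrl replicate 4, the highest control, which exceeded 3 of the 4 AngII libraries. Hspg2 rose by 0.44 ± 0.11 (adjusted p = 0.0235) in Ovx mice, and the call was lost without Ovx replicate 2, Ovx replicate 3 or Ovx + AngII replicate 3, with adjusted p up to 0.0903. In mice with ovaries the difference was 0.23 ± 0.11 (adjusted p = 0.296), and 0.34 ± 0.10 (adjusted p = 0.0486) without Ctrl replicate 4, the only one of 27 settings in which it passed.

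The nidogens are the linkers between the laminin and collagen IV networks. Nid2 had 1825, 1814, 2099.7 and 1624 normalised counts in Ovx + AngII mice, against 1418, 1417, 1365 and 1551 in Ovx mice. It had 2128, 1810.1, 1819 and 2115 in AngII mice, against 1488, 1372, 1942 and 1647 in control mice, where Ctrl replicate 3 lay among the AngII libraries. Nid2 rose by 0.35 ± 0.10 (adjusted p = 0.0384) in Ovx mice, a call kept in 18 of 27 settings. The call was lost without any one of the Ovx libraries or of Ovx + AngII replicates 1, 2 and 3, and with libraries scaled to the same total or the same upper quartile, with adjusted p up to 0.135. Nid2 differed by 0.30 ± 0.10 (adjusted p = 0.125) in mice with ovaries. Rtraf, which the end of Nid2 overlaps, differed by 0.17 ± 0.07 (adjusted p = 0.128) in Ovx mice and 0.11 ± 0.07 (adjusted p = 0.397) in mice with ovaries. Rtraf averaged 2272 normalised counts in Ovx + AngII mice, against 2024 in Ovx mice. The part of shared reads in the Nid2 result was not tested. Nid1, the more abundant nidogen, had 5133, 5014, 5995 and 5304 normalised counts in Ovx + AngII mice, against 3814, 4556, 3924 and 4381 in Ovx mice. It had 4547, 5778, 7067 and 7257 in AngII mice, against 4740.0, 4939, 5866 and 5530.0 in control mice. The first pair did not overlap, while AngII replicate 1 was the lowest of all 8 libraries in the second. Its differences, 0.36 ± 0.12 (adjusted p = 0.0754) and 0.21 ± 0.12 (adjusted p = 0.402), did not pass the test in either comparison. Their mean did, at 0.29 ± 0.09 (adjusted p = 0.0337), here and in 18 of 26 alternative settings, and was lost without replicate 1 or 2 of control, 3 or 4 of AngII or Ovx + AngII, or 1 or 3 of Ovx (adjusted p up to 0.0748). The mean response also passed for Nid2, at 0.32 ± 0.07 (adjusted p = 0.00574), and for Hspg2, at 0.33 ± 0.08 (adjusted p = 0.00916), both in 26 of 26.

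**Figure D3:**
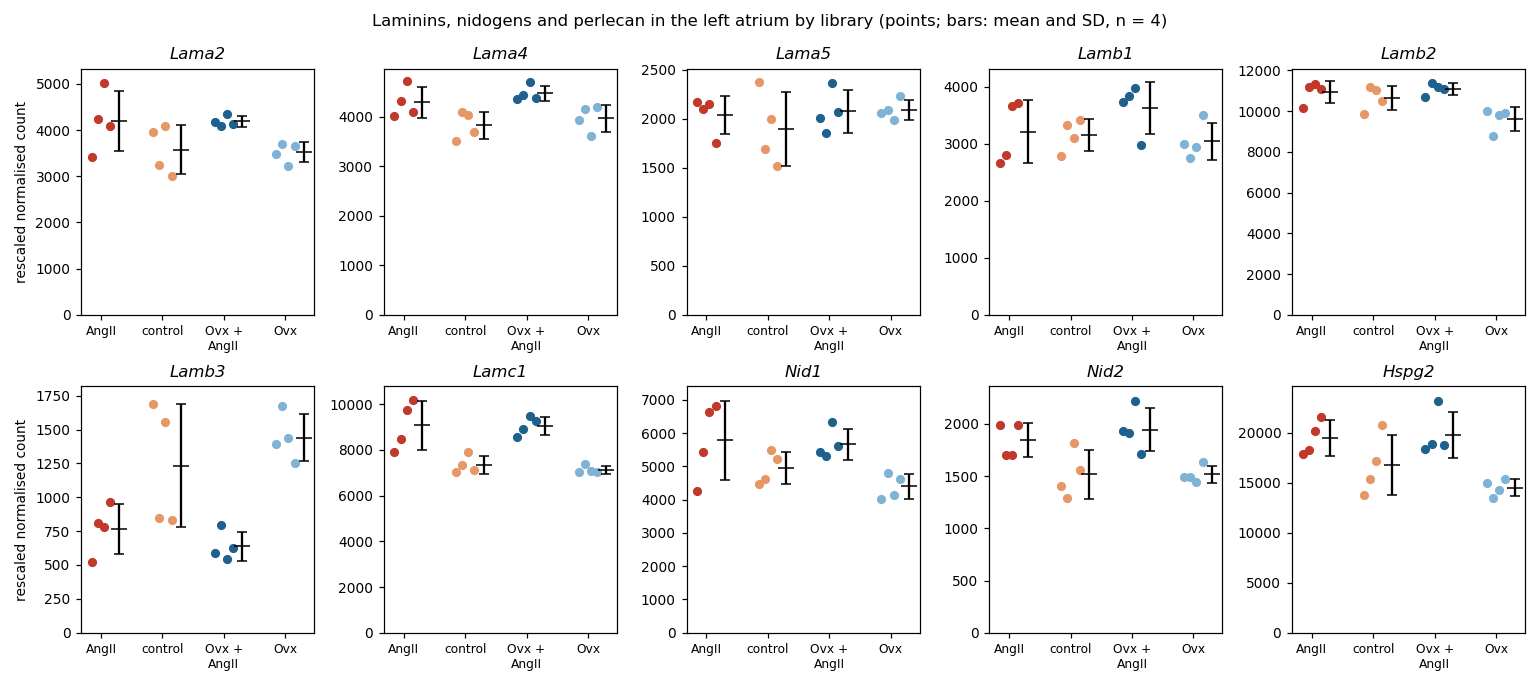
Rescaled normalised counts (y, from 0) of each of the 10 genes by library (points) with mean and SD (bars, n = 4), for AngII, control, Ovx + AngII and Ovx from left to right. Ovx + AngII points lie wholly above the Ovx points for 7 genes and wholly below for Lamb3, where the control libraries split into 2 high and 2 low.

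Of the alpha chains, Lama2, whose loss causes congenital muscular dystrophy, had 3959, 3872, 4111 and 3910.0 normalised counts in Ovx + AngII mice, against 3308, 3509, 3051 and 3471 in Ovx mice. It had 3665, 4518, 5366 and 4347 in AngII mice, against 4203, 3469.5, 4362 and 3182 in control mice. The first pair of groups did not overlap and the second did. Neither difference passed the test, at 0.25 ± 0.11 (adjusted p = 0.162) and 0.23 ± 0.11 (adjusted p = 0.264). Lama4 ran from 4125 to 4444 normalised counts in Ovx + AngII mice, against 3412 to 3977 in Ovx mice. It ran from 4298 to 5037 in AngII mice, against 3726 to 4356 in control mice, with differences of 0.17 ± 0.07 (adjusted p = 0.147) and 0.17 ± 0.07 (adjusted p = 0.214). The mean response passed the test for Lama4, at 0.17 ± 0.05 (adjusted p = 0.0287), and for Lama2, at 0.24 ± 0.08 (adjusted p = 0.0389), and these calls were kept in 21 and 11 of 26 settings. That of Lama4 was lost without Ctrl replicate 1, without replicate 3 of AngII, Ovx or Ovx + AngII, or with libraries scaled to the same total (adjusted p up to 0.0656). That of Lama2 held only without Ctrl replicate 1, Ctrl replicate 3, AngII replicate 1 or AngII replicate 4 among the single omissions, with adjusted p up to 0.0824. Lama5, the alpha chain of epithelia and arterial walls, gave no such pattern. It ran from 1749.7 to 2238 in Ovx + AngII mice, against 1876 to 2109 in Ovx mice, and from 1866 to 2318 in AngII mice, against 1607 to 2519 in control mice. Its mean response was 0.05 ± 0.08 (adjusted p = 0.712), with a 95% interval of -0.12 to 0.23.

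Of the beta chains, Lamb2, part of mature muscle and vessel laminins, had 10127, 10754, 10567 and 10481 normalised counts in Ovx + AngII mice, against 9503, 8299.6, 9269.8 and 9379 in Ovx mice, without overlap. The difference of 0.20 ± 0.07 (adjusted p = 0.0609) did not pass the test. In mice with ovaries Lamb2 ran from 10824 to 12105 with AngII, against 10465 to 11895 in controls, a difference of 0.04 ± 0.07 (adjusted p = 0.775). Lamb1, the beta chain of embryonic and many adult laminins, ran from 2812 to 3762 in Ovx + AngII mice, against 2607 to 3314 in Ovx mice, and from 2849 to 3960.0 in AngII mice, against 2954 to 3611 in controls. Both pairs overlapped, with differences of 0.25 ± 0.12 (adjusted p = 0.218) and 0.02 ± 0.12 (adjusted p = 0.960).

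Lamb3 encodes the beta chain of the laminin that anchors the epidermis, whose alpha chain comes from Lama3, and its loss in humans causes junctional epidermolysis bullosa. It had 557, 749, 517 and 590.4 normalised counts in Ovx + AngII mice, against 1324, 1585, 1358 and 1187 in Ovx mice. The highest Ovx + AngII library was well below the lowest Ovx library. Lamb3 had 555, 859, 832 and 1026 normalised counts in AngII mice, against 1794, 905, 1657 and 882 in control mice. Control replicates 1 and 3 stood above all AngII libraries, whereas control replicates 2 and 4 lay among them, so these groups overlapped. Lamb3 fell to 0.441 of its Ovx level in Ovx + AngII mice, a log2 fold change of -1.18 ± 0.23 (adjusted p = 0.00437) with a 95% interval of -1.66 to -0.70, and passed the test in all 27 settings. In mice with ovaries the difference was -0.64 ± 0.23 (adjusted p = 0.135), which did not pass, and -0.80 ± 0.22 (adjusted p = 0.0316) without Ctrl replicate 4, which did. The mean response was -0.91 ± 0.16 (adjusted p = 0.00113) and passed in all 26 settings. Per kb, Lamb3 made up 4.80% ± 0.712 of the summed transcripts of the 3 beta chains in Ovx + AngII mice, against 11.7% ± 1.96 in Ovx mice (SD, n = 4). The share was 5.89% ± 1.08 in AngII mice, against 9.43% ± 3.54 in control mice. Of the genes that overlap its locus on the other strand, Hsd11b1, which regenerates active glucocorticoid, had 108, 106, 106 and 89.2 normalised counts in Ovx + AngII mice, against 157, 131, 145 and 177 in Ovx mice, without overlap, a difference of -0.56 ± 0.24 (adjusted p = 0.163). G0s2, an inhibitor of fat breakdown, differed by -0.15 ± 0.12 (adjusted p = 0.458). The part of shared reads in the Lamb3 result was not tested.

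Lama3, the alpha chain gene of that laminin, went the other way in ovariectomized mice. It had 129.9, 112, 174 and 114 normalised counts in Ovx + AngII mice, against 108, 85.8, 64.5 and 71.0 in Ovx mice, and every Ovx + AngII library exceeded every Ovx library. Lama3 rose by 0.68 ± 0.20 (adjusted p = 0.0369), a call kept in 21 of 27 settings, lost with no filter on low values and without Ovx replicate 2, 3 or 4 or Ovx + AngII replicate 1 or 3 (adjusted p up to 0.131). With intact ovaries it ran from 72.9 to 124 with AngII, against 108 to 116 in controls, and the difference of -0.24 ± 0.20 (adjusted p = 0.554) did not pass. The levels of both chains were unequal: over 16 libraries Lamb3 averaged 209 rescaled counts per kb and Lama3 10.02. The log2 ratio of Lamb3 to Lama3 counts, a measure chosen after the values were seen, averaged 2.20 ± 0.49 in Ovx + AngII mice and 4.07 ± 0.33 in Ovx mice (SD, n = 4). It averaged 3.08 ± 0.68 in AngII mice and 3.47 ± 0.51 in control mice. Of other laminin chains, Lamc3 did not pass the test (1.36 ± 0.55 (adjusted p = 0.130) in Ovx mice and 0.47 ± 0.55 (adjusted p = 0.702) in mice with ovaries), and Lama1 was listed at 0 in 14 of 16 libraries and was not tested.

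**Figure D4:**
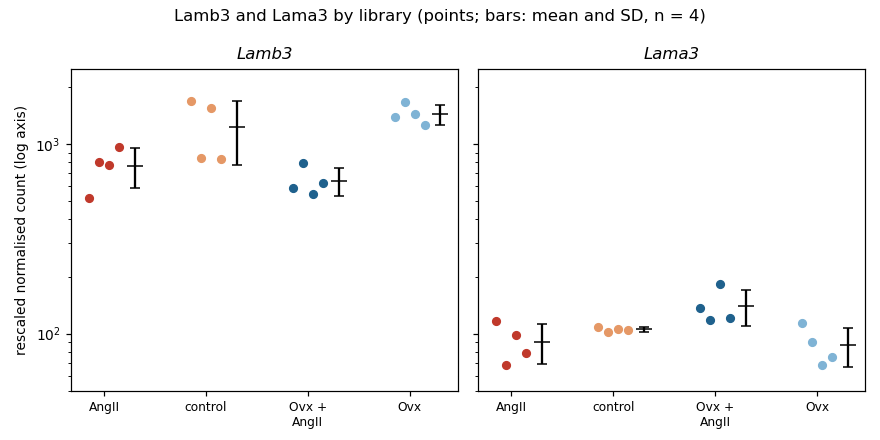
Rescaled normalised counts (y, log axis) of Lamb3 and Lama3 by library (points) with mean and SD (bars, n = 4), for AngII, control, Ovx + AngII and Ovx from left to right. Ovx + AngII libraries lie below the Ovx libraries for Lamb3 and above them for Lama3.

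The next question was whether ovariectomy changed the response to AngII. For the difference between the response in Ovx mice and that in mice with ovaries, none of the 10 genes and 0 of all tested genes (0%) passed the limma test, with 826 genes at an unadjusted p under 0.05. The largest difference among the 10 was that of Lamb3, at -0.55 ± 0.32 (adjusted p = 0.863), with a 95% interval of -1.22 to 0.13. Lamb1 followed at 0.23 ± 0.17 (adjusted p = 0.893) and Hspg2 at 0.21 ± 0.16 (adjusted p = 0.901), and Lamc1 gave 0.04 ± 0.11 (adjusted p = 0.983) with an interval of -0.19 to 0.26. Without Ctrl replicate 4 the Lamb3 difference was -0.38 ± 0.30 (adjusted p = 0.820). The calls made in Ovx mice and not in mice with ovaries are therefore not shown to differ between them.

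Ovariectomy was then compared without AngII, on rescaled values. None of the 10 genes passed between Ovx and control mice, nor did any other tested gene (0%), with 1234 genes at an unadjusted p under 0.05. None of the 10 had groups without overlap, against 4.45% of all tested genes. The largest differences were those of Lamb3, 0.29 ± 0.23 (adjusted p = 0.688), and Hspg2, -0.19 ± 0.12 (adjusted p = 0.614). Lamb3 ran from 1254 to 1672 rescaled counts in Ovx mice, against 834 to 1689 in control mice, so that all Ovx libraries lay within the range of the split controls. Lamb2 had 10007, 8754, 9794 and 9908 rescaled counts in Ovx mice, against 9856, 11155, 11041 and 10477 in control mice, and differed by -0.15 ± 0.07 (adjusted p = 0.565). This gene shows how far the scaling matters: on the deposited values the difference was -0.31 (adjusted p = 0.0227), the only one of the 10 to pass. The median of all tested genes was -0.17 on the deposited values and -0.0075 after rescaling. Without Ctrl replicate 4 the rescaled values were 0.13 ± 0.22 (adjusted p = 0.957) for Lamb3, -0.09 ± 0.10 (adjusted p = 0.947) for Hspg2 and -0.15 ± 0.07 (adjusted p = 0.866) for Lamb2.

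**Figure D5:**
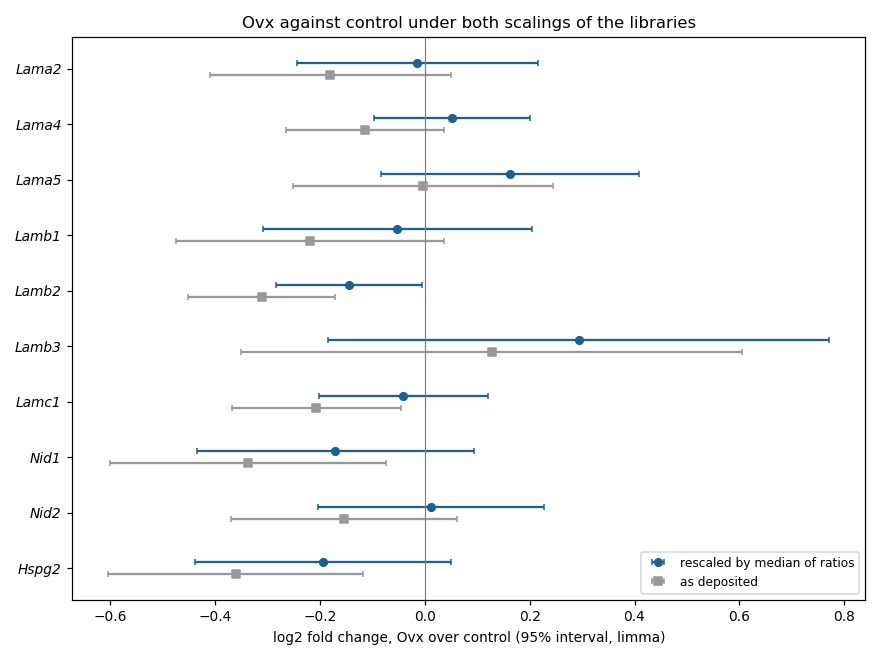
Log2 fold change of Ovx over control (x, with the 95% interval from limma) for each of the 10 genes, from values rescaled by median of ratios (blue circles) and from values as deposited (grey squares). Every deposited estimate lies left of its rescaled one, and Lamb2 reads -0.15 rescaled against -0.31 as deposited.

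With AngII in both groups, the comparison of ovariectomized with intact mice gave 0 calls among the 10 and 0 among all tested genes (0%), with 879 genes at an unadjusted p under 0.05. Lamb3 had 589, 792, 547 and 624 rescaled counts in Ovx + AngII mice, against 519, 808, 779 and 964 in AngII mice, a difference of -0.25 ± 0.23 (adjusted p = 0.903). Lamb1 differed by 0.18 ± 0.12 (adjusted p = 0.853), and the other 8 genes lay between -0.01 and 0.07. None of the 10 had groups without overlap, against 4.53% of all tested genes.

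Other genes of the basement membrane were counted in the same fit. Of 17 further genes (collagen IV and the multiplexins, agrin, peroxidasin and others), 8 rose and 0 fell in Ovx + AngII against Ovx mice, where 5.83% of all tested genes passed higher, with a median of 0.45. The collagen IV chains Col4a1 (1.42 ± 0.21 (adjusted p = 0.000890)) and Col4a2 (1.32 ± 0.21 (adjusted p = 0.00134)) and the collagen-binding Sparc (1.07 ± 0.17 (adjusted p = 0.00148)) had the smallest p-values. In AngII against control mice 4 rose and 0 fell, where 1.68% of all tested genes passed higher, with a median of 0.34, led by Col18a1 (0.52 ± 0.08 (adjusted p = 0.00415)), the source of endostatin, Col4a3 (1.12 ± 0.23 (adjusted p = 0.0179)) and Sparc (0.74 ± 0.17 (adjusted p = 0.0312)). Without Ctrl replicate 4 that count was 7, with 5.39% of all tested genes higher, and without replicate 1, 2 or 3 of control or 1 or 3 of AngII it was 1 or 2. With only the groups compared it was 0, where 2 of all tested genes passed. The count of 8 in ovariectomized mice was 4 or 5 without Ovx replicate 2, 3 or 4 or Ovx + AngII replicate 3. Of 14 laminin receptor genes, 3 rose in Ovx + AngII against Ovx mice (5.83% of all tested genes): Itga6 (0.79 ± 0.14 (adjusted p = 0.00257)) and Itgb1 (0.33 ± 0.07 (adjusted p = 0.00758)), subunits of laminin-binding integrins, and Dag1 (0.43 ± 0.08 (adjusted p = 0.00497)), which encodes dystroglycan. In AngII against control mice (1.68% of all tested genes higher) only Dmd, the dystrophin gene, rose (0.80 ± 0.19 (adjusted p = 0.0341)). That call was lost without Ctrl replicate 1, 2 or 3 or AngII replicate 1, 3 or 4, and with only the groups compared. Without Ctrl replicate 4 there were 4 rises and 1 fall, against 5.39% and 4.95% of all tested genes. The median of the receptor list was 0.080 in Ovx mice and 0.18 in mice with ovaries.

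Within groups the 10 genes varied together only in part. Over 16 libraries, after subtraction of group means, Lamc1 and Nid1 had the highest Pearson correlation (0.886) and Lama5 and Hspg2 the lowest (-0.397), with the libraries sharing tissue and scaling. Control replicates 1 and 3 held the higher values of Lama2, Lama5 and Lamb3 alike. Over all 16 libraries, groups included, the genes most like Lamc1 were Col28a1 (0.943), a collagen of peripheral nerve, P3h1 (0.903), a collagen prolyl hydroxylase, and Col8a1 (0.900), a collagen of vessel walls. The genes most like Lamb3 were Bmp3 (0.965), a bone morphogenetic protein, Rmc1 (0.964), and Rab3a (0.960), a GTPase of secretory vesicles. Bmp3 changed by -3.09 ± 0.43 (adjusted p = 0.000586) in Ovx + AngII against Ovx mice and by -1.69 ± 0.43 (adjusted p = 0.0459) in AngII against control mice.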

How the data were processed

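RNA sequencing of the LA gave 16 libraries in 4 groups of 4, assigned by their sample titles, with replicates numbered in order of deposition. The authors aligned reads with STAR to mm10, counted transcripts by Salmon and used BaseSpace's DESeq2 app for normalisation, and versions are not given in the sources used here. Each deposited value is a signal, the count of a gene as the authors normalised it with DESeq2. These values are not whole, so tests for raw counts were not applied and depth per library is unknown. The 14 symbols that a spreadsheet had turned into dates (0.0721% of all values) were left out, and 5997 genes were at 0 everywhere.

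Genes with a mean of at least 10 (14261) were analysed as log2(value + 1), which understates changes of low genes. All 16 libraries entered one limma 3.58.1 fit (R 4.3.3, trended eBayes) with a mean for each group, with two-sided tests adjusted by Benjamini-Hochberg over all tested genes in each of 6 contrasts. Ovx contrasts used values divided by median-of-ratios factors. The script was tested on simulated data. In 27 alternatives the pseudocount (0.5, 5), filter (none, 50), scaling, samples fitted, moderation or weights were changed, or libraries left out, those of Lama3 and the gene lists being added after seeing the data. All 10 genes and Lama1, Lama3 and Lamc3 were named, some other listed items are not reported here, and of other lists at most the 3 smallest p per comparison among genes that passed; the genes most like Lamc1 and Lamb3 are the 3 with the highest Pearson correlation. The members and lists were chosen with earlier results of these data known.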

Additional observations from a re-analysis of the deposited data

Results flagged for a closer look

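In each group of 4 libraries, the gap from the highest or lowest value to its nearest neighbour was set against the group's whole range, for the 10 genes, Lama3, Lamc3 and 3 ratios between members. A gap above Dixon's critical share of the range was noted in 4 of 60 groups, and chance gives about 1 in 20. Lamc1 had 7018 normalised counts in Ovx replicate 2, above 6672 to 6695 in the other 3 Ovx libraries. Hspg2 had 21938 in Ovx + AngII replicate 3, above 17368 to 17829 in the others. Lamc3, a further gamma chain, had 323 in AngII replicate 1, above 46.7 to 93.1 in the other AngII libraries, and 215 in Ctrl replicate 4, above 46.8 to 64.2 in the other controls.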

How the results depend on the processing

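No paired analysis was possible because the labels give no replicate numbers, and numbers in order of deposition pair nothing. No called value changed sign in any of the 27 alternatives. In AngII against control mice 1 of the 10 genes passed (419 of all genes), against 0 with no filter (300), only the groups compared (2) or robust moderation (393), and 2 with array weights (980). Leaving out one library gave 0 to 3, with 1475 of all genes and 3 members without Ctrl replicate 4, against 99 to 652 of all genes for the other 15 libraries, and 1764 with 1 member, Lamb3, without both Ctrl and AngII replicate 4. In Ovx + AngII against Ovx mice 4 passed (1446 of all genes), against 7 with only the groups compared (2492), 7 with array weights (2863) and 2 to 6 without one library. The count of 2 came without Ovx replicate 2 (783), Ovx replicate 3 (835) or Ovx + AngII replicate 3 (714), and that of 6, with Nid1 and Lamb2 past the test, without AngII replicate 1. For the mean response 7 passed (2517 of all genes), with 3800 of all genes under array weights, and 4 to 8 members without one library, 4 being without replicate 3 of AngII, Ovx or Ovx + AngII. Between Ovx and control mice 0 passed, against 1, Lamb2, on the deposited values (1380 of all genes), where the median gene lies at -0.17. Between Ovx + AngII and AngII mice 0 members passed in all settings, with 108 of all genes on the deposited values. The causes of the other changes were not tested. Depth per library is unknown, so no counting interval was given. With 4 libraries a group, standard errors in the AngII comparisons ran from 0.07 to 0.23 (log2) among the 10 genes.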

Other observations

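The mix of chains can be read as a share of summed transcripts per kb within a chain type (mean and SD, n = 4 libraries). Lama4 held 54.5% ± 0.709 of the alpha chains in Ovx + AngII mice and 54.4% ± 0.340 in Ovx mice, and 53.6% ± 1.08 in AngII mice and 54.2% ± 4.66 in control mice. Lama2 held 32.1% ± 0.493 in Ovx + AngII mice and 30.3% ± 0.284 in Ovx mice, and 32.8% ± 2.41 in AngII mice and 31.6% ± 2.67 in control mice. Lamb2 held 72.2% ± 2.12 of the beta chains in Ovx + AngII mice and 67.5% ± 1.51 in Ovx mice, and 73.3% ± 2.88 in AngII mice and 70.3% ± 1.98 in control mice. Lamb1 held 23.0% ± 2.27 in Ovx + AngII mice and 20.8% ± 1.53 in Ovx mice, and 20.8% ± 2.26 in AngII mice and 20.3% ± 1.80 in control mice. The total includes Lamb3, whose mean share was lower with AngII on both sides. In mice with ovaries its ranges overlapped, 4.51% to 7.06% in AngII mice, against 6.38% to 13.5% in control mice. The log2 ratio of Lamb1 to Lamb2 counts averaged -1.62 ± 0.19 in Ovx + AngII mice and -1.66 ± 0.11 in Ovx mice. It averaged -1.78 ± 0.21 in AngII mice and -1.75 ± 0.10 in control mice. The log2 ratio of Nid2 to Nid1 counts averaged -1.54 ± 0.11 in Ovx + AngII mice and -1.53 ± 0.11 in Ovx mice, a difference smaller than the SD. It averaged -1.63 ± 0.37 in AngII mice and -1.72 ± 0.11 in control mice. The log2 ratio of Lama4 to Lama2 counts ran from 0.059 to 0.118 in Ovx + AngII mice, against 0.162 to 0.196 in Ovx mice. It ran from -0.091 to 0.230 in AngII mice, against -0.174 to 0.328 in control mice. These shares and ratios were not tested.

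Among genes outside the 10, chosen after their values were seen, none passed the limma test for a difference between the AngII responses. The AngII response of Lama3 was higher in Ovx mice than in mice with ovaries by 0.93 ± 0.28 (adjusted p = 0.839), that of Dag1 by 0.36 ± 0.12 (adjusted p = 0.839) and that of Itga6 by 0.53 ± 0.20 (adjusted p = 0.839). Lama3 had 137, 118, 184 and 121 rescaled counts in Ovx + AngII mice, against 116, 68.6, 98.5 and 78.8 in AngII mice. On these rescaled values the Lama3 libraries of Ovx + AngII mice exceeded those of AngII mice without overlap, narrowly, at 118 against 116. Of all tested genes 4.53% had groups without overlap in either direction. On the deposited values the Lama3 ranges overlapped, 112 to 174 normalised counts in Ovx + AngII mice, against 72.9 to 124 in AngII mice. The rescaled difference was 0.63 ± 0.20 (adjusted p = 0.669).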
